A study of Homo sapiens with 5 samples.

Results

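Making a ribosome begins in the nucleolus, where RNA polymerase I transcribes the long precursor of the ribosomal RNAs and a large set of proteins cuts, modifies, folds and packs it into the small and large subunits. Cells adjust this costly process to growth signals such as serum, and MYC and the TOR kinase are its best known regulators. The genes described here are 16 protein genes, 15 of them of this pathway and 1, NOL4L, taken by its symbol only, found among the 2694 genes of the deposited files. They were taken by symbol alone, from a pattern of 120 RefSeq gene symbols that covers RNA polymerase I subunits, processome and assembly factors, small nucleolar ribonucleoprotein (snoRNP) proteins, nucleolar chaperones and all DDX helicases. The other 104 symbols had no row in the files, although POLR1G, 1 of them, was present under its older symbol CD3EAP.

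Total RNA was sequenced from TC28a2 cells, an established human chondrocyte line labelled as coming from costal cartilage, after 5 days in either of 2 media. Growth medium (2 libraries) contained 10% fetal bovine serum. Hypertrophic medium (3 libraries) contained serum at 1%, ITS-A at 1%, BMP-2 (100 ng/ml), GDF-5 (10 ng/ml), T3 (1 µM), ascorbic acid (50 µg/ml), dexamethasone (10 nM) and β-glycerophosphate (10 mM). Both media were based on high-glucose DMEM, and all libraries came from the same line, so the comparison asks how these genes differ between the media and cannot tell apart the effects of serum and of each added factor. The methods describe the replicates of the study in general as biological, without saying how the libraries of this line were kept apart, and p-values measure the spread between these libraries only.

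The files hold 1 value per gene and library, a log2 value after scaling between libraries, and a difference is always hypertrophic minus growth medium on this scale. Read depth is unknown, so no counting error could be given. At the values of the lower members, the files hold no gene with a difference near 0. Among the 202 listed genes that were lower in hypertrophic medium and had mean values between 11.28 and 16.60, the range of the lower members, the smallest fall was -0.58, and among the 299 higher genes of that range the smallest rise was 0.56. Being listed thus already implies a difference, and a gene without a row is not shown to be unchanged. The list holds 1707 higher and 987 lower genes, the counts of up- and downregulated transcripts in the paper. It thus appears to have been chosen from these same libraries. The p-values below therefore set size against spread and are no independent evidence of a difference. Adjustment over such a list does not keep its usual error rate. Of 14 chondrocyte markers 5 were listed, namely SOX9, COL2A1, ACAN, COL9A2 and COL9A3, and all were higher in hypertrophic medium, SOX9 with an adjusted p of 0.0525 and 0.059 (limma) under 2 other scalings of the libraries. Of 8 hypertrophy markers MMP13 and PTH1R were listed, both higher, as were PHEX of 5 osteoblast markers and LPL of 6 adipocyte markers. Under median centring of the libraries the adjusted p of MMP13 and PHEX was 0.116 and 0.0501, and under quantile normalization that of LPL was 0.0876 (limma). Both scalings used the listed genes only, most of them higher, and weaken the calls of higher genes in general. As deposited, 62.5% of all listed genes were called higher. Of 5 smooth muscle markers ACTA2 was higher and TAGLN, CNN1 and MYOCD were lower. Bulk values cannot tell fewer cells of a kind from less RNA per cell.

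Of the 16 listed members, 15 fell in hypertrophic medium and 1, NOL4L, rose, each with an adjusted p under 0.05 (limma). Over all listed genes, 36.5% were called lower and 62.5% higher by the same rule. The 15 falls ran from -0.59 for MRTO4 to -0.80 for DDX21, with standard errors of 0.11 to 0.14 and adjusted p from 0.000336 to 0.00201 (limma). Taken as plain log2 ratios, these are values in growth medium 1.51 to 1.74 times those in hypertrophic medium. The median difference over all 16 members was -0.68, against 0.56 over all listed genes and -0.69 over the 987 listed genes that were lower. The media did not overlap in any of the 16 members, as in 99.0% of the listed genes. No member differed by more than 1 with an adjusted or an unadjusted p under 0.05 (limma), while 18.9% of the listed genes did so with an adjusted p.

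**Figure D1:**
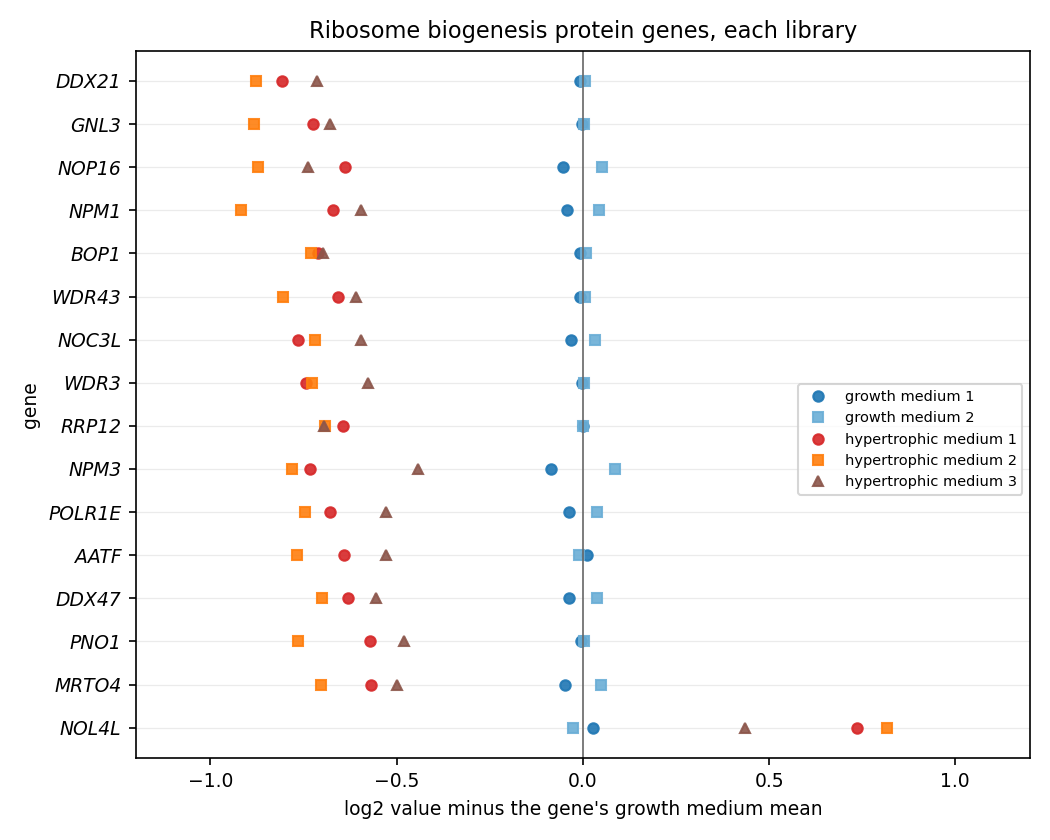
Each row is a gene and each point a library, plotted as its log2 value minus the mean of the gene's growth medium libraries. For the 15 genes from DDX21 to MRTO4 all 3 hypertrophic medium libraries lie left of both growth medium libraries, with at least 0.36 between the media, and for NOL4L they lie to the right.

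In the values as deposited the falls spanned a narrow range. Their SD over the 15 genes was 0.0587, under the standard error of any single gene, against 0.14 with a range of -0.60 to -1.10 after quantile normalization between the libraries. As deposited, the range from -0.85 to -0.55 lay inside the 95% interval of each of them. Whether any of the 15 genes fell more than another was not tested, and since they share their libraries, overlapping intervals do not settle it. They also lay close to the edge of the list, since the median fall of the 202 lower genes of the same range of values was -0.74 and 165 of these fell by less than 1. Sizes near that edge follow in part from which genes were listed.

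**Figure D2:**
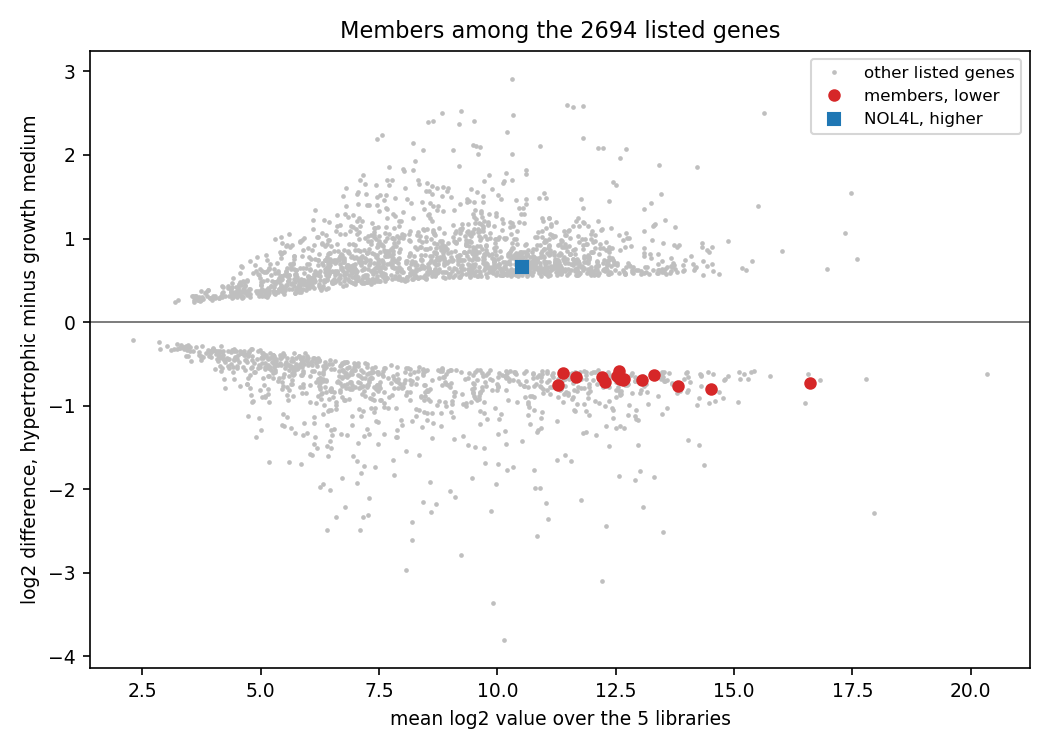
Each point is 1 of the 2694 listed genes, with its mean log2 value over the 5 libraries on the horizontal axis and its log2 difference, hypertrophic minus growth medium, on the vertical axis. The 15 lower members lie at -0.59 to -0.80, just under the band around 0 that is empty in their range of mean values, and NOL4L lies at 0.66.

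In the values as deposited the largest difference was that of DDX21, a DEAD-box RNA helicase of the nucleolus that takes part in both RNA polymerase I transcription and ribosomal RNA processing. The gene, with 15 exons in its canonical transcript, spans chr10:70715891-70744824 (GRCh37, plus strand). Its values were 14.99 and 15.00 in growth medium and 14.19, 14.12 and 14.28 in hypertrophic medium replicates 1, 2 and 3. The growth medium libraries were nearly equal, and the highest hypertrophic medium library stayed well under them. The difference was -0.80 (standard error 0.11, 95% interval -1.05 to -0.55, adjusted p = 0.000336, limma). The second helicase, DDX47, acts in small subunit processing. It went from 13.68 ± 0.053 (SD, n = 2) to 13.05 ± 0.072 (SD, n = 3), a difference of -0.63 (adjusted p = 0.000914, limma). The other 11 nucleolar helicases of the role list and all 26 remaining DDX genes, which serve splicing, translation, RNA sensing and other tasks, had no row.

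The 250 bases before the members' RefSeq transcript starts were searched for 4 short motifs that are common near housekeeping genes, on both strands. These were CACGTG (the E-box that MYC, MAX and USF proteins recognise), CCGGAAGT (the core recognised by ETS proteins), GCGCATGC (part of the NRF1 site) and CTCGCGAG (the core of a palindrome found in many such promoters). The table of RefSeq promoters held 17 windows for 13 of the 16 members, which are NOL4L and 12 of the lower genes, with no entry for BOP1, RRP12 and POLR1E, and each window matched GRCh37 at 1 place. CACGTG was found in 2 of the 13 members (15.4%), AATF and DDX21, against 9.73% of the 15842 protein-coding genes with a window. CCGGAAGT was found in 2 members (15.4%), DDX21 and NOC3L, against 5.81%, CTCGCGAG in 1 member (7.69%), NPM1, against 1.53%, and GCGCATGC in 0 members against 4.34%. Over all 27305 genes of the table the shares were 7.73%, 4.13%, 1.05% and 3.22% in the order CACGTG, CCGGAAGT, CTCGCGAG and GCGCATGC. Over the 492 listed protein-coding genes that were lower, the lower members included, they were 10.2%, 2.85%, 1.22% and 2.24% in the same order. With 13 genes these are descriptions, and 9 of the 13 members held none of the 4 motifs.

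The sequences below show where the matches lie, since the share alone does not. They are from RefSeq, placed on GRCh37 by exact match, and run 5′ to 3′ on the strand of the gene with the motif in capitals. For DDX21 (chr10:70715676-70715890, plus strand) and NOC3L (chr10:96122717-96122946, minus strand) the part of the window outside annotated exons is given, and the motif begins at position -60 and -49 counted from the transcript start. The capitals of NOC3L are CCGGAAGT read on the opposite strand. Short stretches follow for the remaining matches, all on the plus strand. The E-box of a second DDX21 start (chr10:70716361-70716388) lies inside the gene, in a window with 248 of its 250 bases in annotated exons. The others are the E-box of AATF (chr17:35306086-35306113) and the palindrome before a second NPM1 start, also inside the gene (chr5:170814795-170814824). The window before the first NPM1 start held none of the 4 motifs.
DDX21: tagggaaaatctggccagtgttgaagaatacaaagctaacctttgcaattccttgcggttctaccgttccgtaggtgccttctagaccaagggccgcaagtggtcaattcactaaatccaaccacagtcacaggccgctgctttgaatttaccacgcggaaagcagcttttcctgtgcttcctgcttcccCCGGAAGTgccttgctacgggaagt
NOC3L: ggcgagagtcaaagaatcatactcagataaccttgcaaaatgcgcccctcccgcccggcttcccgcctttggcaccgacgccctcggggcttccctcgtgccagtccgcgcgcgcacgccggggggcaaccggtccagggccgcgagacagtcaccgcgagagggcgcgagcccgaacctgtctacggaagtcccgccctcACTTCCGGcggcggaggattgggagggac
DDX21, second start: gccgggtgtccCACGTGgtccccggcga
AATF: acagaagcggtCACGTGccttggcgcgc
NPM1, second start: cttgggaagcgCTCGCGAGatcttcagggt

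RNA polymerase I was represented by POLR1E (PAF53), on chromosome 9 of GRCh37 from 37485945 to 37503694, a subunit that pairs with POLR1G in a module for starting and extending transcription. Its values were 12.56 and 12.64 in growth medium and 11.92, 11.85 and 12.07 in hypertrophic medium replicates 1, 2 and 3. All hypertrophic medium libraries were lower, and the difference was -0.65 (95% interval -0.91 to -0.39, adjusted p = 0.001, limma). The other 7 subunit symbols had no row, but POLR1G is in the files under its older symbol CD3EAP, which the symbol pattern does not take. It lies on chromosome 19 from 45909902 to 45913995. CD3EAP was 11.35 and 11.14 in growth medium and 10.38, 10.10 and 10.32 in hypertrophic medium, a difference of -0.98 (95% interval -1.29 to -0.67, adjusted p = 0.000336, limma). Both partners of the module were thus lower in all 3 hypertrophic medium libraries. Exons of CD3EAP share bases with ERCC1 on the opposite strand, and whether strand was used in counting is not given in the sources used here. Whether CD3EAP fell more than POLR1E was not tested, and their intervals overlap. Of 8 RNA polymerase I factors, among them UBTF, RRN3 and TCOF1, only TAF1D was listed, a subunit of the promoter selectivity factor SL1. TAF1D fell by 0.68 (adjusted p = 0.00118, limma).

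The small subunit processome packs around the precursor while it is still being transcribed. WDR43 (UTP5) belongs to its first subcomplex, UTP-A, which also ties processing to transcription, and was the only 1 of 6 UTP-A genes with a row. WDR43, on chromosome 2 of GRCh37 from 29117533 to 29171085, was 13.46 and 13.47 in growth medium and 12.80, 12.66 and 12.85 in hypertrophic medium. It fell by 0.69 (standard error 0.11, adjusted p = 0.000694, limma). WDR3 (UTP12), on chromosome 1 from 118472343 to 118509166, was the only 1 of 4 UTP-B genes with a row, and UTP-B binds the precursor next. WDR3 was 13.07 and 13.08 in growth medium and 12.33, 12.35 and 12.50 in hypertrophic medium, and fell by 0.68 (adjusted p = 0.000703, limma). The gap between the media was several times the spread within either for both genes. None of the 3 genes of the MPP10 subcomplex was listed.

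Of 24 further small subunit genes, RRP12, AATF and PNO1 were listed and all fell. RRP12, a HEAT-repeat protein needed for late maturation and export of pre-ribosomes, lies on chromosome 10 of GRCh37 from 99116115 to 99185833. Its values were 13.00 and 12.99 in growth medium and 12.35, 12.30 and 12.30 in hypertrophic medium. This was among the tightest sets of libraries of the 16 genes, with SDs of 0.000685 (n = 2) and 0.0282 (n = 3), and a difference of -0.68 (adjusted p = 0.000563, limma). AATF, on chromosome 17 from 35306225 to 35414171, is known as a transcriptional cofactor and works with NGDN and NOL10 in early small subunit assembly. AATF went from 12.92 ± 0.015 (SD, n = 2) to 12.27 ± 0.12 (SD, n = 3), a difference of -0.65 (adjusted p = 0.00103, limma). PNO1, on chromosome 2 from 68385020 to 68403370, guides the last cut that forms the end of the 18S RNA. PNO1 went from 11.76 ± 0.0053 (SD, n = 2) to 11.15 ± 0.15 (SD, n = 3), a difference of -0.61 (adjusted p = 0.00181, limma). Its partner, the endonuclease gene NOB1, had no row.

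For the large subunit, 5 of 22 genes were listed, and all 5 fell. GNL3 (nucleostemin), a nucleolar GTPase abundant in proliferating cells, lies on chromosome 3 of GRCh37 from 52715172 to 52728513. Both growth medium libraries stood at 14.28 and the hypertrophic medium libraries at 13.56, 13.40 and 13.60, a difference of -0.76 (95% interval -1.02 to -0.50, adjusted p = 0.000473, limma). NOP16, on chromosome 5 from 175810949 to 175815928, is an assembly factor of early large subunit particles. NOP16 was 11.68 and 11.78 in growth medium and 11.09, 10.86 and 10.99 in hypertrophic medium, a difference of -0.75 (adjusted p = 0.000693, limma). BOP1, on chromosome 8 from 145486055 to 145515082, forms the PeBoW complex with PES1 and WDR12, which had no row. BOP1 was 12.68 and 12.70 in growth medium and 11.98, 11.96 and 11.99 in hypertrophic medium, so that its hypertrophic medium SD of 0.0167 (n = 3) was the smallest of the 16 genes. Its difference was -0.71 (adjusted p = 0.000444, limma).

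NOC3L, on chromosome 10 from 96092983 to 96122716, is needed for moving early large subunit particles through the nucleus and has a second known part in DNA replication. NOC3L went from 13.07 ± 0.044 (SD, n = 2) to 12.38 ± 0.088 (SD, n = 3), a difference of -0.69 (adjusted p = 0.000663, limma). MRTO4, on chromosome 1 from 19578299 to 19586622, resembles the stalk protein RPLP0 and holds its place on the immature subunit. MRTO4 went from 12.92 ± 0.069 (SD, n = 2) to 12.33 ± 0.10 (SD, n = 3) and had the smallest fall, -0.59 (adjusted p = 0.00142, limma). The 5 large subunit genes thus spanned -0.59 to -0.76, and the 5 small subunit genes above, from WDR43 to PNO1, spanned -0.61 to -0.69 in the values as deposited. After quantile normalization the spans were -0.60 to -1.10 and -0.67 to -0.93.

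The nucleolar chaperones had 2 of 3 genes listed. NPM1 (nucleophosmin), on chromosome 5 of GRCh37 from 170814120 to 170838814, is among the most abundant nucleolar proteins and helps to shape the granular outer zone of the nucleolus. Its values were 17.00 and 17.08 in growth medium and 16.37, 16.12 and 16.44 in hypertrophic medium, a difference of -0.73 (95% interval -1.04 to -0.42, adjusted p = 0.00123, limma). NPM1 has 50 pseudogenes in the RefSeq table, so its own share of the reads is uncertain. The pseudogenes NPM1P24 and NPM1P27 had rows, with differences of -0.34 (adjusted p = 0.00764, limma) and -0.54 (adjusted p = 0.00528, limma). After quantile normalization these were -0.24 (adjusted p = 0.0649, limma) and -0.90 (adjusted p = 0.000639, limma). NPM3, on chromosome 10 from 103541082 to 103543203, binds NPM1. NPM3 had the widest spread of the lower members, with 11.96 and 12.14 in growth medium and 11.32, 11.27 and 11.61 in hypertrophic medium. Its difference was -0.65 (95% interval -0.96 to -0.34, adjusted p = 0.00201, limma), and replicate 3 stood 0.36 under the lower growth medium library. The third gene, NCL (nucleolin), had no row.

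None of the 8 snoRNP protein genes had a row, FBL, NOP56, NOP58, DKC1, GAR1, NHP2, NOP10 and NOLC1. These proteins methylate or pseudouridylate ribosomal RNA with small nucleolar RNAs as guides, many of which are cut from the introns of genes that serve translation. GNL3 holds 3 small nucleolar RNA genes of this kind in its introns, and all 3 had a row. SNORD19B also shares bases, on the same strand, with an exon of a GNL3 transcript, so its reads and those of its host may not be told apart. SNORD19B was 6.49 and 6.69 in growth medium and 5.89, 5.99 and 5.75 in hypertrophic medium, a difference of -0.72 (adjusted p = 0.00174, limma). SNORD19 and SNORD69 each fell by 0.54, with adjusted p of 0.00415 and 0.00364 (limma). The host fell by 0.76. WDR43 holds SNORD53 and SNORD92, which had no row.

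NOL4L was the only higher member, and its name rather than a known part in ribosome assembly brings it under the symbol pattern. It lies on chromosome 20 of GRCh37 from 31030862 to 31173135. Its values were 10.15 and 10.10 in growth medium and 10.86, 10.94 and 10.56 in hypertrophic medium, a difference of 0.66 (95% interval 0.34 to 0.99, adjusted p = 0.00222, limma). Quantile normalization between the libraries brought this to 0.24, with an adjusted p of 0.101 and an unadjusted p of 0.0903 (limma), and no member was then called higher. Without NOL4L all listed members with a known part in ribosome assembly were lower.

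**Figure D3:**
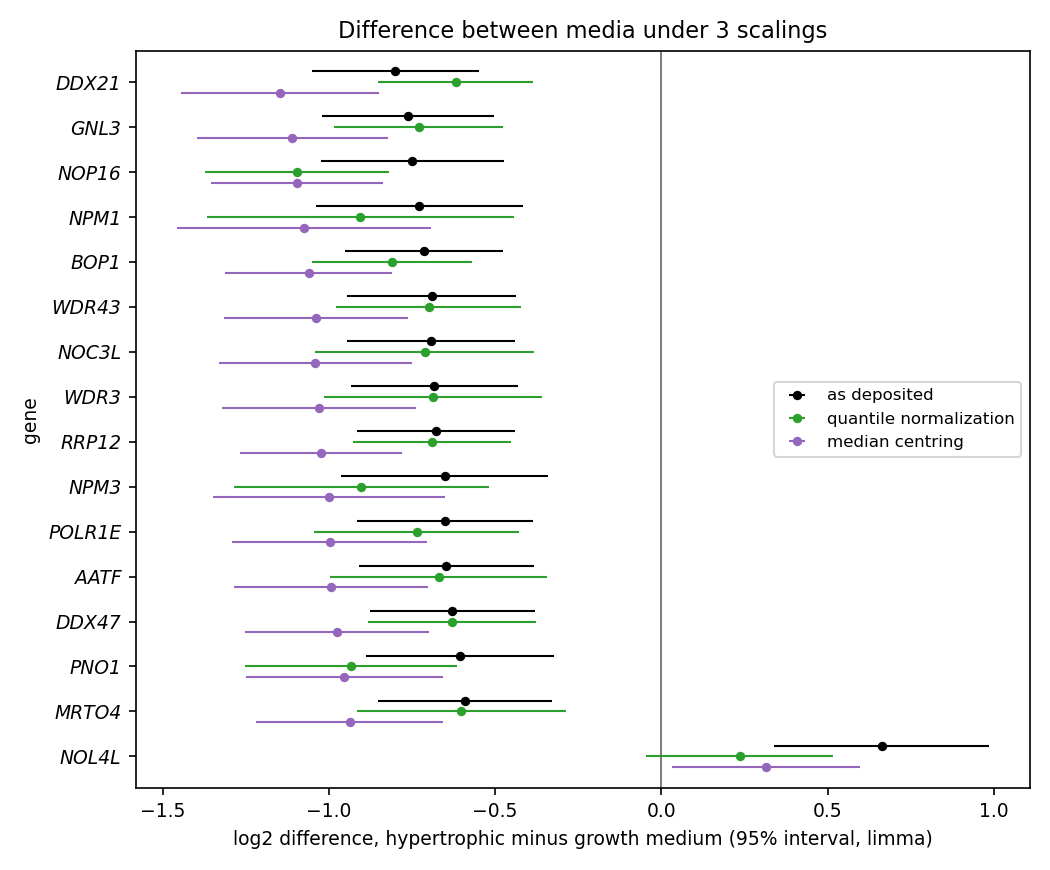
Points are log2 differences, hypertrophic minus growth medium, and bars are 95% intervals (limma) for the values as deposited, after quantile normalization and after centring each library on its median. All 15 lower genes stay left of 0 under each scaling, with the median moving from -0.68 to -0.71 and -1.03, while the interval of NOL4L reaches 0 after quantile normalization.

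How far the genes fell depended on the scaling of the libraries. Centring each library on its median lowered every difference by 0.35, and 9 members then fell by more than 1. Both other scalings used the listed genes alone, 1707 higher and 987 lower in hypertrophic medium. Library medians over such a list are expected to differ, and were 8.17 and 8.18 in growth medium and 8.43 to 8.62 in hypertrophic medium. Making them equal pulls most differences down, so the sizes after these scalings are no better estimates than those as deposited. Quantile normalization moved the genes unequally and changed their order. NOP16 went from -0.75 to -1.10, the 1 member then past 1, and PNO1 from -0.61 to -0.93, over 1.5 times its value as deposited. DDX21 went the other way, from -0.80 to -0.62. The direction and the call of the 15 lower genes were the same under both other scalings. Over all listed genes 36.6% and 35.8% were called lower under median centring and quantile normalization, against 36.5% as deposited. The share called in either direction went from 99.0% to 68.0% and 82.4%. Lost calls were thus mostly those of higher genes, and the lost call of NOL4L is no trait of that gene. Exons of 7 members share bases with another annotated gene, and for 6 of these the other gene is on the opposite strand. The library kit keeps strand, but with the counting not described, these values are uncertain, as is that of CD3EAP. Only for NOP16 was such a gene, other than a small nucleolar RNA, in the files. ARL10 was 10.62 and 10.57 in growth medium and 11.36, 11.31 and 10.94 in hypertrophic medium, a rise of 0.61 (adjusted p = 0.00409, limma), opposite to the fall of NOP16. The rise of ARL10 was 0.26 and 0.19 under median centring and quantile normalization, with adjusted p of 0.089 and 0.181 (limma).

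Outside the symbol pattern, 3 of 59 further assembly factors were listed, and all 3 fell, where 36.5% of all listed genes were called lower. EBNA1BP2, a partner of early large subunit particles, was 13.34 and 13.39 in growth medium and 12.51, 12.37 and 12.65 in hypertrophic medium, a difference of -0.85 (adjusted p = 0.000372, limma). GTPBP4, a GTPase of the large subunit, and NIFK, which binds the proliferation antigen Ki-67, fell by 0.65 and 0.64 (adjusted p = 0.000816 and 0.00114, limma). None of the 14 nuclear exosome genes had a row. Of 85 cytosolic ribosomal protein genes 3 were listed, and all 3 fell. RPL22L1, a paralog of RPL22, fell by 1.05 (adjusted p = 0.000131, limma), RPS7 by 0.60 (adjusted p = 0.00261, limma) and RPS27L, a paralog of RPS27, by 0.59 (adjusted p = 0.00201, limma). Of 21 RNA polymerase III genes only POLR3G was listed. It was 9.55 and 9.51 in growth medium and 8.29, 8.63 and 8.64 in hypertrophic medium, a difference of -1.01 (adjusted p = 0.000568, limma).

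Among 22 genes of the MYC network and the TOR pathway 3 were listed, and these rose, where 62.5% of all listed genes were called higher. MNT, which competes with MYC for MAX, was 8.72 and 8.56 in growth medium and 9.33, 9.40 and 8.91 in hypertrophic medium, a difference of 0.58 (adjusted p = 0.0115, limma). Under median centring and quantile normalization the difference of MNT was 0.23 and 0.17, with adjusted p of 0.205 and 0.289 (limma). Many higher genes of the list lost their call in this way. EIF4EBP2, a translation repressor that TOR inactivates, rose by 0.97 (adjusted p = 0.000125, limma), and MLXIP, a glucose-responsive factor of the wider network, rose by 0.70 (adjusted p = 0.000999, limma). Median centring and quantile normalization brought EIF4EBP2 to 0.63 and 0.79, and MLXIP to 0.35 under both, with both genes still called higher. MYC itself had no row. Of 10 genes of p53 and nucleolar stress, GADD45A fell by 1.05 (adjusted p = 0.000256, limma) and TP53INP1 rose by 0.79 (adjusted p = 0.0008, limma), which became 0.44 and 0.38 under median centring and quantile normalization (adjusted p = 0.0261 and 0.0449, limma). Of 25 proliferation genes 2 were listed, and they went opposite ways. The cyclin gene CCND1 was 13.04 and 13.05 in growth medium and 10.96, 10.96 and 10.82 in hypertrophic medium, a difference of -2.13 (adjusted p = 4.33e-06, limma). MKI67, the gene of Ki-67, was 14.21 and 14.03 in growth medium and 14.64, 15.07 and 14.76 in hypertrophic medium, a difference of 0.70 (adjusted p = 0.00199, limma), which median centring brought to 0.35 (adjusted p = 0.0859, limma) and quantile normalization to 0.83 (adjusted p = 0.00151, limma). The part of these genes in the falls above was not tested.

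**Figure D4:**
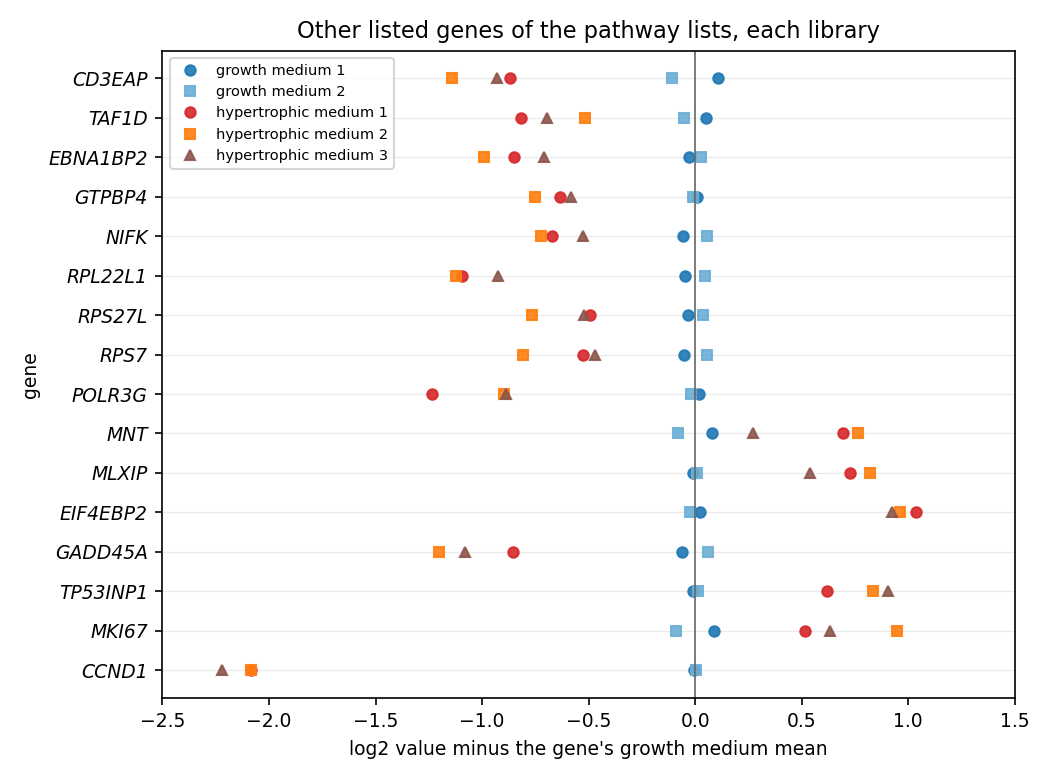
Each row is a listed gene of the pathway lists that the symbol pattern does not take, and each point a library, plotted as its log2 value minus the mean of the gene's growth medium libraries. The genes from CD3EAP to POLR3G lie left of 0 in all 3 hypertrophic medium libraries, MNT, MLXIP and EIF4EBP2 lie to the right, and CCND1 is farthest from 0 at -2.13 on average.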

How the data were processed

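Per the methods, the authors trimmed the reads, aligned them to hg19 with HISAT2 2.1.0 and counted NCBI transcripts with StringTie 2.1. A filter on zero read counts is worded unclearly there. Values were then turned into log2 and scaled by RLE, with no further detail, and which values were deposited is not stated. The listed genes, 1707 higher and 987 lower, equal in number the transcripts that the paper gives as up- and downregulated. They thus appear to be its differentially expressed set, although no member reached its printed log2 cut of 2 on this scale. The processing notes of the labels instead name TopHat2 2.0.13, Cuffdiff 2.2.1 and rn5, a rat build, although 2655 of the 2694 listed symbols matched the human RefSeq table. How this discrepancy arose is not given in the sources used here.

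Media were compared across the 2694 genes with limma 3.58.1 in R 4.3.3 (mean-variance trend, no block, Benjamini-Hochberg adjustment). A trial of the fit on simulated data left most genes without a difference, unlike this list, and says nothing about the error rate here. The authors' own test was the DESeq2 Wald test on counts, which the log2 values do not allow. Groups and replicate numbers are those of the labels. Loci are from GENCODE on GRCh37, the build of hg19, and promoters from RefSeq on GRCh38.p14.

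Members, role lists, pathway lists and tests were chosen with earlier results of these data known. Every listed member is named, with all libraries for the largest difference of each role and direction and for the polymerase I and chaperone genes. Other pathway genes are named up to 6 a list, by size. Which of these have all libraries printed (EBNA1BP2, POLR3G, MNT, CCND1, MKI67, SNORD19B), and the detail on NOP16, BOP1, ARL10 and the NPM1 pseudogenes, was chosen after the values were seen. Alternatives were 2 other scalings, the replicate block, no trend, a filter on low values, other thresholds and each library left out. Protein sequences were not used here.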

Additional observations from a re-analysis of the deposited data

How the results depend on the processing

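Each of the 15 lower members kept its direction and an adjusted p under 0.05 (limma) in all 10 refits, which comprised 2 scalings, no trend, the replicate block, the filter on low values and 5 fits without 1 library. Over these 150 comparisons the falls ran from -0.53 to -1.15 and the highest adjusted p was 0.0316. This is no property of the members, since of the listed genes lower as deposited 86.5% to 100.0% were also called lower in the same refits. A fit without a growth medium library assumes that the remaining 1 varies like the other group. The number of members called higher went from 1 to 0 under quantile normalization. No member was past a difference of 1 with an adjusted p under 0.05 in the values as deposited, but 9 were under median centring and 1 under quantile normalization, and 16 were past 0.5. The median of all 16 members was -1.03 under median centring, which shifts every gene by -0.35, and -0.63 to -0.73 with each library left out. With the replicate number as a block, 15 members were called lower and the median was -0.73. The block changed no call. Replicate 3 has no growth medium library, so the block fit gives the same differences as the fit without hypertrophic medium replicate 3. These refits are thus not separate estimates. Across genes, the replicate 1 minus 2 differences of the media correlated at -0.0253. This single value shows no pairing, but it does not settle whether libraries with the same number were handled together. Alternatives for counts or linear values were not run. Depth is unknown, and precision rests on 2 and 3 libraries.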

Other observations

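In the values as deposited, hypertrophic medium replicate 2 was the lowest of the 3 in 12 of the 15 lower ribosome biogenesis genes, and replicate 3 was the highest in 13. With each library centred on its median, replicate 1 was the lowest in 8 and replicate 2 in 7, and replicate 3 was the highest in 15. As deposited, the median difference of these genes from growth medium was -0.67, -0.77 and -0.59 in replicates 1, 2 and 3. Over all 987 listed genes that were lower, the same medians were -0.73, -0.70 and -0.69. The genes share their libraries and scaling, and these orders were noticed after the values were seen and were not tested. The exceptions in the values as deposited were NOC3L and WDR3, lowest in replicate 1, RRP12, lowest in replicate 3 and highest in replicate 1, and NOP16, highest in replicate 1.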
